A study of Mus musculus with 6 samples.

Results

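The genes described here encode the subunits of the mitochondrial respiratory chain and ATP synthase that are carried in the nucleus. They were chosen by symbol, as every gene whose name begins with Nduf, Uqcr, Cox4, Cox5, Cox6, Cox7, Cox8, Atp5 or Sdh, leaving out symbols that end in -ps with or without digits. That rule gave 103 genes of the 56832 in the deposited count tables. It also takes in 12 assembly factors of complexes I and II, 8 complex IV paralogues known from particular tissues or conditions, and 5 second copies of complex I and IV subunits. RNA sequencing measured polyadenylated RNA of monocytes from mouse peripheral blood in 2 groups of 3 libraries. The thrombocytopenic group was of the genotype PF4cre-iDTR: Cre recombinase driven by the promoter of Pf4, the platelet factor 4 gene active in megakaryocytes, turns on a diphtheria toxin receptor. The control group had the genotype WT. Both groups carry the same treatment label, spelled "Diptheria Toxin", so genotype and platelet state cannot be told apart in this comparison. The labels give no age or strain and do not tie libraries to animals, so p-values here reflect variation from library to library, which may be technical.

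The respiratory chain sits in the inner mitochondrial membrane. Complex I takes electrons from NADH and complex II takes them from succinate. Complex III passes them to cytochrome c, and complex IV hands them to oxygen. Complexes I, III and IV pump protons, and complex V, the ATP synthase, uses the resulting gradient to make ATP. All but complex II also hold subunits encoded in mitochondrial DNA, so most of these enzymes draw on 2 genomes. Monocytes and macrophages can shift between oxidative phosphorylation and glycolysis with their state of activation.

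Between 24842319 and 37552029 counts were assigned to genes in each library, and the respiratory chain genes took 0.701% to 0.706% of them in the control libraries and 0.721% to 0.742% in the thrombocytopenic libraries. The summed level of 10 monocyte markers was 20990 to 21180 CPM (read counts scaled to a common library total) in the thrombocytopenic libraries and 18480 to 18930 CPM in the control libraries. That sum is mostly Lyz2: 6 of the 10 were called higher and 4 lower, among them Cx3cr1 at 11.5 CPM on average against 52.2 CPM. Marker sums of other blood cells were small apart from that of the platelet list, whose 10 markers summed to 1222 to 1294 CPM against 1011 to 1057 CPM. That sum is nearly all Pf4 (1095 CPM on average against 924.4 CPM) and Ppbp (150.7 CPM against 95.2 CPM). Of 6 tested platelet markers 4 were lower, such as Nrgn at 0.0179 CPM on average against 3.69 CPM and Clec1b at 0.725 CPM against 3.53 CPM. Itga2b (0.343 CPM against 0.863 CPM) and Gp9 (0 against 0.452 CPM) were near the floor, and Gp1bb was at 0 in every library. The platelet sum is therefore not read as platelet content, and which cells gave the Pf4 and Ppbp RNA was not tested. Dendritic cell markers summed to 15.6 to 18.6 CPM against 31.3 to 35.3 CPM. That sum is mostly Ccr7, at 15.2 CPM on average against 28.0 CPM, and Cd209a, with 13 against 5 counts, went the other way. Basophil and mast cell markers summed to 0.322 to 0.57 CPM against 6.59 to 8.31 CPM. Erythroid markers summed to at most 0.0559 CPM against 1.89 to 2.41 CPM, with Alas2 at 0 in all libraries. Hba-a1 gave most of the control sum, at 2.04 CPM on average. Neutrophil, B cell, and T and NK cell marker sums overlapped between the groups and were at most 15.6 CPM, with Cd3d, Cd3e, Cd3g, Ncr1 and Nkg7 at 0 throughout. The part of these marker differences in the respiratory chain values was not tested, and in bulk RNA fewer cells of a type and less RNA per cell cannot be told apart.

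In monocytes of thrombocytopenic mice, RNA for part of the respiratory chain was slightly higher, by 1.06-fold to 1.14-fold in the genes that passed the test and were abundant (a mean of at least 10 CPM). Of the genes tested, 7 of 15 rose in complex IV (46.7%) and 6 of 17 in complex V (35.3%). In complex I 7 of 45 rose (15.6%), in complex III 1 of 8 (Uqcrh) and in complex II none of 8. Of all genes tested 22.4% rose, and of those with at least 10 CPM 31.1%. Atp5j2, a membrane subunit of ATP synthase, Cox7b and Cox6b1 of complex IV and Ndufb3 of complex I had the smallest p-values. Of the 93 genes with enough counts to test, 21 rose, 2 fell (Cox5a and Cox6a2) and 70 did not pass an adjusted p of 0.05 (edgeR's quasi-likelihood test, Benjamini-Hochberg adjustment over all 12488 genes tested). In either direction 24.7% of them passed, against 45.1% of all genes tested. The share that rose, 22.6%, was near the 22.4% of all genes, so the number of rises is not a result about these genes. The falls were 2 of 93, where 22.7% of all genes fell. Without thrombocytopenic library 1 the number of rises was 11 in place of 21, with the share of all genes not given for that fit.

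The size of the differences was small as well. The median log2 fold change (thrombocytopenic over control) was 0.05 across the 93 genes and -0.001 across all genes, and 71 of the 93 values were above 0 (76.3%, against 49.9% of all genes). Among genes with a mean of at least 10 CPM the medians were 0.058 for the members and 0.026 for all genes, with 80.8% and 56.7% of values above 0. The median absolute log2 fold change was 0.061, against 0.155 in the whole table. At that level it was 0.061 for the 78 members and 0.12 for all 7760 genes, so the narrower range was also seen among the more abundant genes. Past 1.5-fold lay 11.1% of all genes and 2 members, Cox6a2 and Cox6b2. Both are nearly silent here and passed the count filter only through the control group, so their differences are not read as a result. The 22 called members with at least 10 CPM differed by 1.06-fold to 1.14-fold. For the 56 members at that level that did not pass, the 95% intervals of the log2 fold change ran from -0.20 to 0.41, which for some of them leaves room for differences as large as those called. In 21 of the 93 genes all 3 thrombocytopenic libraries lay above all 3 control libraries (25.2% of all genes did so), and in 3 they lay below (26% of all genes).

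**Figure D1:**
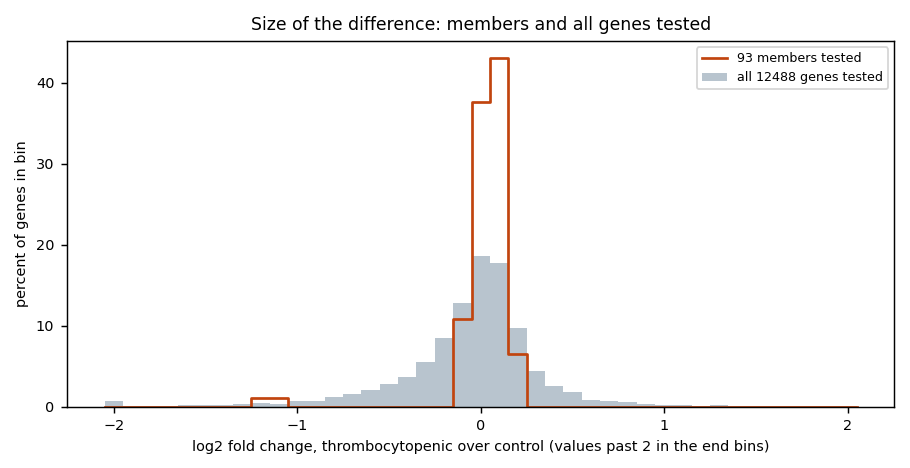
Share of genes in each bin (vertical axis, percent) by log2 fold change of the thrombocytopenic over the control group (horizontal axis), for the respiratory chain genes tested and for all genes tested. The respiratory chain genes form a narrow peak just above 0 around their median of 0.05, and only Cox6a2 and Cox6b2 lie far to the left.

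Before the values of single genes, the promoter sequences of 5 members are given, because the upstream regions of respiratory chain genes are known for sites of NRF1, of ETS family factors (such as GABP) and of YY1. RefSeq promoters (GRCm38.p6) were found for 81 of the 103 genes. Shown are 150 bases that end at the annotated start, 5′ to 3′ on the gene's strand, with matches to the NRF1 letters GCGCANGCG or the ETS letters CCGGAAG, on either strand, in capitals. Cox6b1, Uqcrh, Atp5h and Atp5e rose in the thrombocytopenic group and Sdha, of complex II, did not pass the test.
Cox6b1 (chr7:30626115-30626264, minus strand): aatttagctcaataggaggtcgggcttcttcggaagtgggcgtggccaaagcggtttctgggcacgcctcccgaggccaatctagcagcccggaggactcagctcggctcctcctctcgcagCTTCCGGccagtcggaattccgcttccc
Uqcrh (chr4:116075071-116075220, minus strand): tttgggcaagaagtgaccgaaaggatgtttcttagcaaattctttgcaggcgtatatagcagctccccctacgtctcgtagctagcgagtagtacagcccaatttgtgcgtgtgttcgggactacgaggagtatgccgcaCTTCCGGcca
Atp5h (chr11:115419920-115420069, minus strand): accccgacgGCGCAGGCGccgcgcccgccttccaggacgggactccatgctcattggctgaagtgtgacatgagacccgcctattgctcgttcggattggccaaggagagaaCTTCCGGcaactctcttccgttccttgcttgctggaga
Atp5e (chr2:174464102-174464251, minus strand): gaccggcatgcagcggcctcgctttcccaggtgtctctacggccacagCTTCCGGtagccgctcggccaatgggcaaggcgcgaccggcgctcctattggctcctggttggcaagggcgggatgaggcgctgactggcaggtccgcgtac
Sdha (chr13:74350241-74350390, minus strand): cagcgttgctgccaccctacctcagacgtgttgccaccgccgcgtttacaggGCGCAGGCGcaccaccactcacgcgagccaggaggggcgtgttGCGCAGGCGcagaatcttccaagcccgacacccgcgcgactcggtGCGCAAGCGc

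The 4 promoters shown of genes that rose each held the ETS letters. Their positions were -28 for Cox6b1, -10 for Uqcrh, -38 for Atp5h and -102 for Atp5e. Positions are counted from the annotated start to the leftmost base of the match. These 4 do not stand for all genes that rose, where 6 of 17 promoters held the ETS letters. In complex II, where no gene rose, 5 of 7 promoters held them, though not that of Sdha. Those 5 include the promoters of the assembly factors Sdhaf1, Sdhaf2 and Sdhaf3. Atp5h also held the NRF1 letters at -141, and Sdha held them 3 times, at -98, -55 and -10. Over the whole window, which runs from 250 bases before to 50 bases after the start, the NRF1 letters occurred in 29.6% of the 81 promoters, against 15.7% of the 9441 promoters found for genes tested here and 7.03% of all 27025 in the table. The ETS letters occurred in 27.2%, against 21.2% and 9.93%. The YY1 letters AAGATGGC occurred in 13.6%, against 5.65% and 3.19%. The letters TCAAGGTCA, known for estrogen-related receptors, were in 2 of the 81 promoters. Each motif was counted on its own, whether or not its match overlapped one of another motif, and a match is a description of sequence, not a site.

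Complexes differed in what their promoters held. All 7 complex II promoters and 12 of 15 complex V promoters had at least 1 match to the NRF1, ETS or YY1 letters, against 22 of 40 in complex I, 3 of 5 in complex III and 3 of 14 in complex IV. The share was 36.6% over the promoters of all genes tested and 17.8% over the whole table. Complex IV, with few matches, had the largest share of genes that rose, and complex II, with a match in each promoter, had none. The complex II promoters found were those of Sdha, Sdhb, Sdhd and 4 assembly factors, so most of them are not of subunits. Promoters were counted over all members of a complex, tested or not. The NRF1 letters were in 1 of 17 promoters of genes that rose and in 23 of 61 promoters of genes tested and not called. For the ETS letters the numbers were 6 of 17 and 16 of 61, and for the YY1 letters 4 of 17 and 7 of 61. These splits were noted after the values were seen and were not tested.

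**Figure D2:**
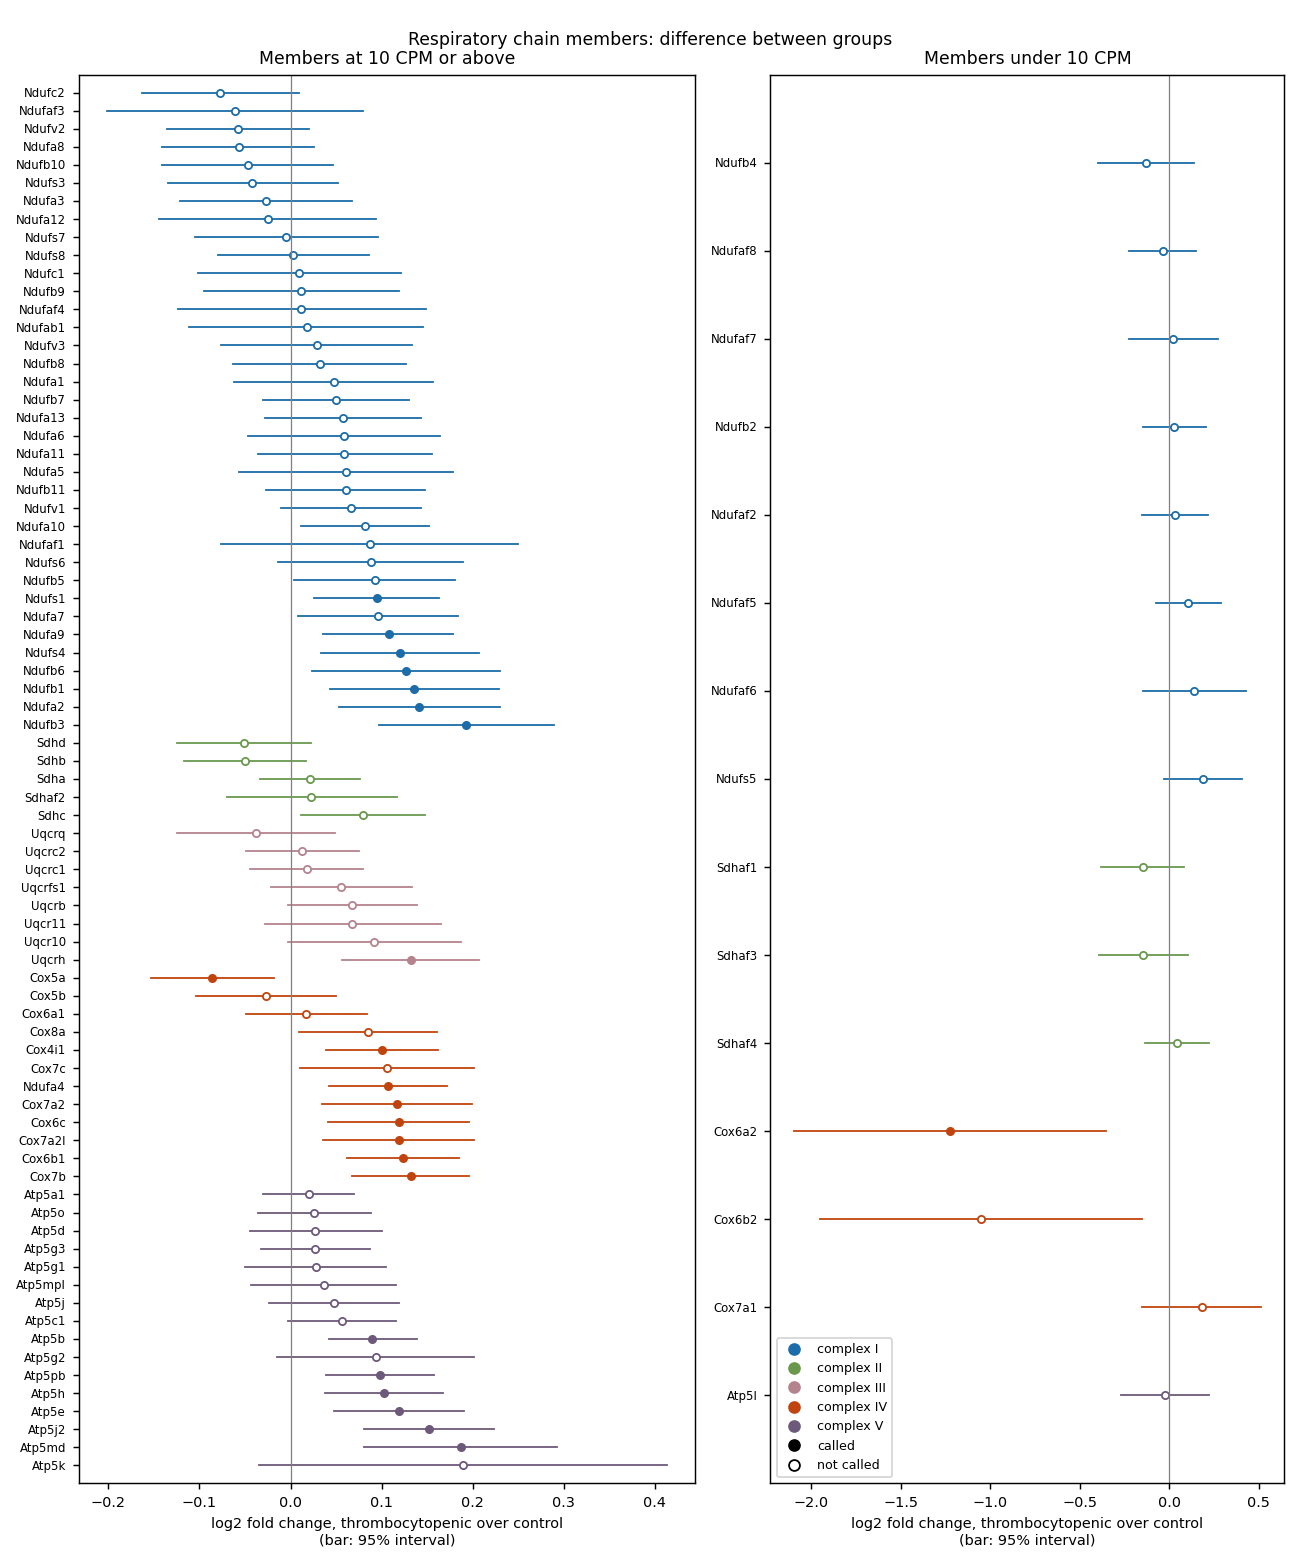
Log2 fold change of tested respiratory chain genes (thrombocytopenic over control, 3 libraries each), ordered by complex, with 95% intervals from edgeR's quasi-likelihood fit. Filled points passed an adjusted p of 0.05, as 45.1% of all genes tested did. By complex, 7 of 45 tested genes passed in I, 1 of 8 in III, 9 of 15 in IV and 6 of 17 in V.

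Complex I, the NADH dehydrogenase, had 45 tested genes, of which 7 rose and none fell. The complex thus had 15.6% rising, against 22.4% of all genes and 31.1% of those with at least 10 CPM. Its median log2 fold change was 0.048. Its summed level was 1773, 1703 and 1739 CPM in the thrombocytopenic libraries and 1675, 1693 and 1683 CPM in the control libraries. The groups did not overlap, and their means differed by 3.26%. Of the 30 accessory subunits, which surround and stabilise the catalytic core, 6 rose (20%, against 22.4% of all genes), with a median of 0.058. Of the 7 nuclear core subunits, which hold the flavin and the iron-sulfur clusters, 1 passed and the median was -0.005; core and accessory subunits were not tested against each other. None of the 8 Ndufaf assembly factors passed (median 0.028), where 45.1% of all genes did, and most of them were at low levels.

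Ndufs1, the largest core subunit, carries iron-sulfur clusters of the peripheral arm. Its levels were 100.4, 94.8 and 104.2 CPM in the thrombocytopenic libraries and 93.8, 93.7 and 93.1 CPM in the control libraries. The control libraries lay close together, and all 3 thrombocytopenic libraries were above them, library 2 by the smallest margin. Ndufs1 rose by 0.095 on the log2 scale (SE 0.034, adjusted p = 0.0202). Ndufv1, which binds NADH and flavin, was at 62.3 ± 1.72 CPM against 59.6 ± 1.15 CPM (SD, n = 3 each here and below), with a log2 interval of -0.011 to 0.14, and was not called.

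Ndufb3, a small subunit of the membrane arm, had the largest rise of complex I. Its levels were 40.3, 36.7 and 38.9 CPM in the thrombocytopenic libraries and 32.3, 35.3 and 33.7 CPM in the control libraries. Every thrombocytopenic library was above every control library, and the mean was 14.3% higher (log2 0.19, SE 0.048, adjusted p = 0.000693). Ndufa2, of the peripheral arm, was at 51.4, 52.5 and 49.97 CPM against 42.8, 48.9 and 47.2 CPM (log2 0.14, SE 0.044, adjusted p = 0.00674). Here control library 1 was the lowest by a wide margin, and without it the call was lost. Ndufs4, an accessory subunit of the peripheral arm whose loss causes complex I deficiency, was at 54.3, 52.5 and 49.6 CPM against 45.1, 49.1 and 49.3 CPM (log2 0.12, SE 0.043, adjusted p = 0.0199). Its groups were separated by a narrow gap between thrombocytopenic library 3 and control library 3.

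Ndufa9, which lies near the quinone site, was at 90.7, 84.8 and 88.7 CPM against 83.9, 83.4 and 78.1 CPM, without overlap (log2 0.11, SE 0.036, adjusted p = 0.0111). Ndufb1, of the membrane arm, was at 69.7, 61.1 and 71.1 CPM against 59.6, 64.1 and 60.1 CPM (log2 0.14, adjusted p = 0.0149). Ndufb6, also of the membrane arm, was at 40.7, 38.1 and 41.3 CPM against 32.8, 38.9 and 38.0 CPM (log2 0.13, adjusted p = 0.0383). For both Ndufb1 and Ndufb6 thrombocytopenic library 2 lay below the highest control library, so these groups overlapped. Ndufa10, an accessory subunit with a kinase-like fold, was above in every library but did not pass (log2 interval 0.012 to 0.15, adjusted p = 0.0508). Ndufc2, of the membrane arm, was the 1 member of complex I whose thrombocytopenic libraries all lay below the control libraries, at 44.6 ± 0.983 CPM against 47.1 ± 1.62 CPM, and it did not pass either (log2 interval -0.16 to 0.009). Ndufa10 and Ndufc2 were singled out after their values were seen.

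Complex II, succinate dehydrogenase, links the citrate cycle to the chain and is the complex with no mitochondrially encoded subunit. None of its 8 genes passed, where 45.1% of all genes did (median log2 fold change -0.015). Its summed level was 594.1, 568.5 and 584.4 CPM in the thrombocytopenic libraries and 579.3, 581.6 and 578.4 CPM in the control libraries. The control sums sat within the range of the thrombocytopenic sums, and the means differed by 0.446%. Sdha, the flavoprotein that oxidises succinate, was at 259.3, 249.9 and 255.9 CPM against 251.8, 250.8 and 251.7 CPM, with a log2 interval of -0.034 to 0.076. That interval leaves out rises as large as the 0.09 of Atp5b, the smallest among the genes that rose.

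The other complex II subunits went in different directions. Sdhc, a membrane anchor, was at 103.4, 99.1 and 101.4 CPM against 98.4, 97.9 and 91.3 CPM. All 3 thrombocytopenic libraries were above the controls, and it missed the threshold narrowly (log2 0.08, adjusted p = 0.0501). Sdhb, the iron-sulfur subunit, was at 99.2, 94.5 and 94.3 CPM against 96.7, 100.9 and 100.4 CPM, with a log2 interval of -0.12 to 0.017. Sdhd, the other membrane anchor, was at 79.4, 72.2 and 76.7 CPM against 76.9, 79.9 and 79.8 CPM, with a log2 interval of -0.13 to 0.023. In both Sdhb and Sdhd thrombocytopenic library 1 reached into the control range, and the other libraries of that group lay below it. Sdhaf1, an assembly factor for the iron-sulfur subunit, had the largest difference of the complex, at 4.83 ± 0.675 CPM against 5.35 ± 0.461 CPM, with a wide log2 interval of -0.38 to 0.083.

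Complex III, the cytochrome bc1 complex, had 8 tested genes, of which Uqcrh rose and none fell (median 0.062). The complex thus had 12.5% rising, against 22.4% of all genes and 31.1% of those with at least 10 CPM. Its summed level was 671.3, 649.1 and 648.3 CPM in the thrombocytopenic libraries and 640.4, 638.5 and 630.6 CPM in the control libraries, without overlap (3.09% higher). Uqcrh, the hinge protein that touches cytochrome c1, was at 84.7, 76.0 and 79.0 CPM against 72.7, 72.3 and 74.1 CPM. The control libraries were again close together and below all thrombocytopenic libraries, of which library 1 was the highest (log2 0.13, SE 0.037, adjusted p = 0.003). Uqcrfs1, the Rieske iron-sulfur protein, was at 70.3 ± 3.19 CPM against 67.8 ± 2.21 CPM, with a log2 interval of -0.021 to 0.13, and was not called. Uqcrc1, a core protein and the most abundant transcript of the complex in CPM, was at 175.8 ± 3.4 CPM against 173.7 ± 8.2 CPM (log2 interval -0.044 to 0.08).

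Complex IV, cytochrome c oxidase, had the largest share of called genes. Of its 12 subunits expressed in most tissues 8 passed (66.7%, against 45.1% of all genes and 55.2% of those with at least 10 CPM), 7 higher and 1 lower, with a median log2 fold change of 0.11. The summed level of the complex was 1222, 1180 and 1185 CPM in the thrombocytopenic libraries and 1113, 1133 and 1151 CPM in the control libraries. The lowest thrombocytopenic library stood above the highest control library, and the means differed by 5.6%. Cox7b, a small membrane subunit, had the smallest p: 118.7, 116.4 and 117.6 CPM against 106.9, 104.3 and 110.8 CPM (log2 0.13, SE 0.032, adjusted p = 0.000494). Cox6b1, which faces the intermembrane space and joins both monomers of the dimer, was at 153.9, 147.9 and 150 CPM against 133.5, 139.4 and 141.7 CPM (log2 0.12, SE 0.031, adjusted p = 0.000706). In both genes the groups were well separated, and the spread within each group was smaller than the gap between the means.

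Ndufa4, first assigned to complex I and now counted as a complex IV subunit, was at 105.6, 106.3 and 102.7 CPM against 98.5, 95.8 and 97.9 CPM (log2 0.11, SE 0.032, adjusted p = 0.00513). Cox4i1, the most abundant complex IV transcript in CPM and the subunit through which ATP inhibits the enzyme, was at 244.2, 225.3 and 238.3 CPM against 215.1, 229.7 and 215.4 CPM (log2 0.10, SE 0.031, adjusted p = 0.00594). Cox6c, a membrane subunit, was at 73.3, 67.6 and 69.5 CPM against 65.6, 62.1 and 66.6 CPM (log2 0.12, SE 0.039, adjusted p = 0.00976). Ndufa4 and Cox6c had no overlap, whereas for Cox4i1 control library 2 lay above thrombocytopenic library 2. Cox7a2, the form of the Cox7a subunit found in most tissues, was at 96.0, 82.9 and 89.5 CPM against 80.2, 84.8 and 82.8 CPM (log2 0.12, adjusted p = 0.017), also with overlap. Cox7a2l, a related protein that joins complexes III and IV into supercomplexes, was at 49.5, 49.5 and 49.9 CPM against 45.3, 45.3 and 46.6 CPM (log2 0.12, adjusted p = 0.0154). Its libraries lay close together within each group, with no overlap. Cox8a, a small membrane subunit, was above in every library, at 69.5 ± 0.755 CPM against 65.4 ± 2.85 CPM, and missed the threshold (log2 interval 0.009 to 0.16, adjusted p = 0.0611).

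Not all complex IV subunits were higher. Cox5a, on the matrix side, was at 97.4, 99.2 and 94.1 CPM against 103.1, 99.0 and 106.5 CPM. It fell by 0.086 on the log2 scale (SE 0.034, adjusted p = 0.034), but thrombocytopenic library 2 lay above control library 2, and the call was lost in 8 of 18 alternatives, DESeq2 among them. Cox5b, the zinc-binding subunit next to it, was at 60.2 ± 1.32 CPM against 61.3 ± 1.58 CPM (log2 interval -0.10 to 0.05). Cox6a1, the liver-type form of the Cox6a subunit, was at 105.4 ± 3.97 CPM against 104.2 ± 2.57 CPM (log2 interval -0.049 to 0.084). In both, the libraries of the groups overlapped.

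The complex IV paralogues known from muscle, testis or low oxygen were nearly silent. Cox8b, Cox7b2, Cox8c and Ndufa4l2 had no count in any library, which allows up to 3 counts over each group, and Cox4i2, the lung and low-oxygen form of Cox4, had 7 counts in the thrombocytopenic and 10 in the control libraries in all. Cox6a2, the heart and muscle form, was at 0.107, 0.201 and 0.28 CPM against 0.522, 0.389 and 0.488 CPM, which rests on 20 and 41 counts. It entered the test only through the control group, where it was higher, and so had to differ. The fit gave a log2 of -1.22 (SE 0.43, adjusted p = 0.0179), and the call was lost with DESeq2, at a threshold of 0.01, and without thrombocytopenic library 1, control library 1 or control library 3. Cox6b2, the testis form, also entered through the control group, rests on 21 and 38 counts and did not pass (log2 interval -1.95 to -0.15, adjusted p = 0.0509). Cox7a1, the muscle form of Cox7a, was at 2.53 ± 0.322 CPM against 2.24 ± 0.348 CPM, with a log2 interval of -0.15 to 0.51. The common forms of the same subunits, Cox6a1 and Cox6b1, averaged 104.2 and 138.2 CPM in the control libraries.

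**Figure D3:**
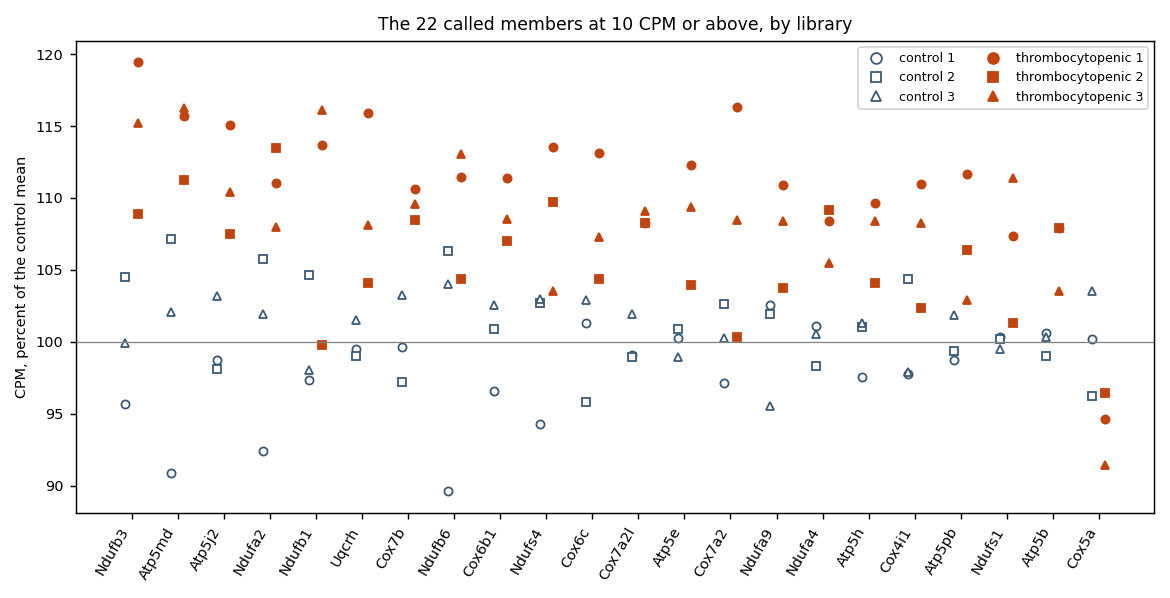
Level of each called respiratory chain gene with a mean of at least 10 CPM, as a percentage of its control mean, for the 3 thrombocytopenic and the 3 control libraries. Among the 21 genes that rose, thrombocytopenic library 1 was the highest of its group in 13 and library 2 the lowest in 16.

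The 3 thrombocytopenic libraries were not alike across the genes that rose. Library 1 was the highest of its group in 13 of 21 and never the lowest, and library 2 was the lowest in 16 of 21. Control library 1 was the lowest of its group in 11 of 21. In the sums of all 5 complexes, too, thrombocytopenic library 1 was the highest of its group.

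The same edgeR test was run with each library left out in turn, which leaves fewer samples, so that a call can be lost while its fold stays about as large. Without thrombocytopenic library 1, 12 of the 23 called members no longer passed, with adjusted p from 0.0504 (Ndufs1, log2 0.092 against 0.095 with all libraries) to 0.217 (Cox7a2, log2 0.063). Besides these they were Ndufa9, Ndufb1, Ndufb6, Ndufs4, Uqcrh (log2 0.087, adjusted p = 0.0726), Cox4i1, Cox5a (log2 -0.089 against -0.086), Cox6c, Cox6a2 and Atp5pb. Without control library 1, 10 no longer passed: Ndufa2 (log2 0.09, adjusted p = 0.124), Ndufb1, Ndufb6, for which it was largest (log2 0.059, adjusted p = 0.389), Ndufs4, Cox5a (log2 -0.086), Cox7a2, Cox7a2l (log2 0.11 against 0.12), Cox6a2, Atp5h and Atp5md. Without control library 3, 6 no longer passed, from Cox6a2 (adjusted p = 0.0552) to Cox5a (adjusted p = 0.22), with Cox4i1, Ndufs1, Ndufb1 and Ndufa9 between them. Without thrombocytopenic library 3 these were Ndufs1 (log2 0.063, adjusted p = 0.19), Ndufb1, Ndufb6 and Cox5a, and without control library 2 they were Ndufs1, Cox6c and Cox7a2l. Leaving out thrombocytopenic library 2 ended no call, and every one of these values kept its direction. Ndufb3, Cox6b1, Cox7b, Ndufa4, Atp5b, Atp5e and Atp5j2 passed whichever library was left out.

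Complex V, the ATP synthase, held the most abundant transcripts, and 6 of its 17 genes rose while none fell (median log2 fold change 0.057). The complex thus had 35.3% rising, against 22.4% of all genes and 31.1% of those with at least 10 CPM. Its summed level was 3210, 3125 and 3101 CPM in the thrombocytopenic libraries and 2994, 3009 and 3012 CPM in the control libraries. The groups were separated, and the means differed by 4.66%. In the F1 part, taken here as the catalytic head with the central stalk, 2 of 5 genes rose, in the peripheral stalk 2 of 4 and in the membrane part 2 of 5. In the c ring, the rotor that protons turn, none of 3 rose. These counts by part rest on few genes and are not read as a result. Atp5b, the catalytic beta subunit, was at 1022, 1022 and 980.9 CPM against 953.1, 937.7 and 950.6 CPM (log2 0.09, SE 0.024, adjusted p = 0.00168). Atp5a1, the alpha subunit that alternates with beta in the same ring, was at 808, 771 and 778.5 CPM against 778, 782.9 and 764.1 CPM, with a log2 interval of -0.03 to 0.07. The beta subunit was thus above in every library, while the alpha subunit overlapped between the groups. The difference between these 2 genes was not itself tested.

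Atp5e, the epsilon subunit of the central stalk, was at 86.3, 79.9 and 84.1 CPM against 77.0, 77.5 and 76.0 CPM (log2 0.12, SE 0.036, adjusted p = 0.00471). In the peripheral stalk, which holds the head still, Atp5pb (subunit b) was at 224.9, 214.3 and 207.3 CPM against 198.8, 200.1 and 205.2 CPM (log2 0.098, SE 0.030, adjusted p = 0.00525). Atp5h (subunit d) was at 115.8, 109.9 and 114.5 CPM against 103, 106.7 and 107 CPM (log2 0.10, SE 0.032, adjusted p = 0.00702). None of these 3 genes had overlapping groups. The gap was narrowest for Atp5pb, between thrombocytopenic library 3 and control library 3.

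Of the 4 parts of the synthase, the membrane part differed most in its sum. Its 5 genes summed to 237.5, 223.9 and 236.9 CPM against 202.6, 213.7 and 220.2 CPM, 9.73% higher. Atp5j2 (subunit f) had the smallest p of all 93 genes, at 89.3, 83.5 and 85.7 CPM against 76.6, 76.1 and 80.1 CPM (log2 0.15, SE 0.036, adjusted p = 0.000346). Atp5md, a small protein known for holding synthase dimers together, was at 32.2, 31.0 and 32.4 CPM against 25.3, 29.9 and 28.5 CPM (log2 0.19, SE 0.053, adjusted p = 0.00284). Both had every thrombocytopenic library above every control library. Atp5k (subunit e), also at the dimer interface, had a fold change as large but spread widely, at 55.7, 48.9 and 59.4 CPM against 43.0, 50.4 and 50.1 CPM. It did not pass (log2 0.19, interval -0.035 to 0.41, adjusted p = 0.153), but it did with the fit not made robust (adjusted p = 0.00552), limma-voom (0.00833), no filter on low counts (0.000129) and without thrombocytopenic library 2 (0.000244).

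Subunit c is encoded by 3 genes, Atp5g1, Atp5g2 and Atp5g3, whose mature proteins are known to be identical. None passed: the log2 intervals were -0.05 to 0.11 for Atp5g1, -0.015 to 0.20 for Atp5g2 and -0.032 to 0.087 for Atp5g3. Atp5g3 gave 64.9% of their summed CPM in libraries of thrombocytopenic mice and 65.2% in controls. Atp5g1 gave 25% and 25.1%, and Atp5g2 10.2% and 9.74%. The mix of c subunit genes was thus nearly the same in both groups. Their near copies make the split between them uncertain, since how shared reads were counted is not given in the sources used here.

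**Figure D4:**
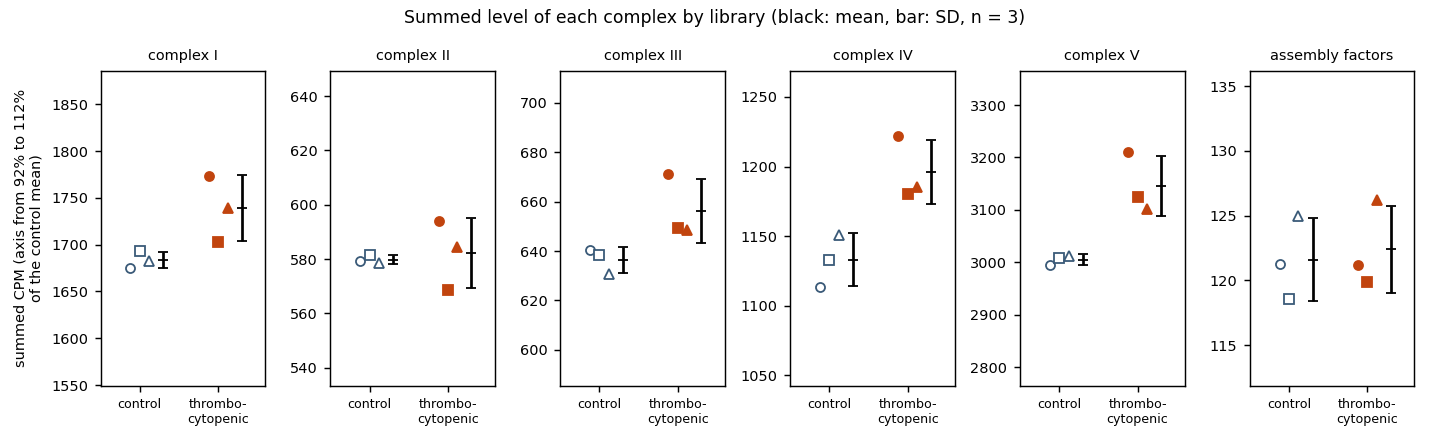
Summed CPM of each complex in every library, each panel with its own axis that does not start at 0, where points are libraries, black dashes group means and bars the SD (n = 3). Complex I and II sums include their assembly factors, and the groups overlap in the complex II and assembly factor panels and in no other.

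The 12 assembly factors, which help build complexes I and II without staying in them, had a median of 0.023. None of them was called, where 45.1% of all genes were. Apart from Sdhaf2 (SE 0.047), the SE of their log2 fold changes ran from 0.068 (Ndufaf4) to 0.14 (Ndufaf6). In the genes that rose it ran from 0.024 (Atp5b) to 0.053 (Atp5md), so differences as small as theirs could be missed in the assembly factors. The summed level of the assembly factors was 121.2, 119.9 and 126.2 CPM in the thrombocytopenic libraries and 121.3, 118.6 and 125 CPM in the control libraries, so the groups overlapped. Leaving them out, the 78 tested subunits other than tissue paralogues had a median of 0.058, with 21 higher and 1 lower. The share higher was 26.9%, against 22.4% of all genes and 31.1% of those with at least 10 CPM. In either direction 28.2% were called, against 45.1% and 55.2%. The sum over all 103 genes was 7471, 7226 and 7258 CPM against 7002, 7054 and 7056 CPM. All 3 thrombocytopenic libraries were above the controls, by 3.99% in the means, with no p given for this sum.

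Levels can be compared between genes only per length, here as CPM per kilobase of a gene's median coding transcript in the control group. By that measure the order was Atp5b (494), Atp5a1 (301), Cox4i1 (292), Cox6b1 (284), Atp5g3 (219) and Ndufa4 (212). The 4 complex II subunits lay between 48.1 (Sdhc) and 87.0 (Sdhb), with Sdha at 86.7, and the assembly factors between 1.06 (Sdhaf3) and 17.3 (Sdhaf2). Within complex I the range was wide, from 91.7 for Ndufb7 down to 4.09 for Ndufb4 and 3.45 for Ndufb2. Subunits that enter the same complex in equal number thus differed widely in this measure. Ndufb2, Ndufb4 and Atp5l (8.88) are low beside their partners, and whether reads shared with near copies were dropped is not given. The lengths come from an annotation that may not be the one used for counting.

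**Figure D5:**
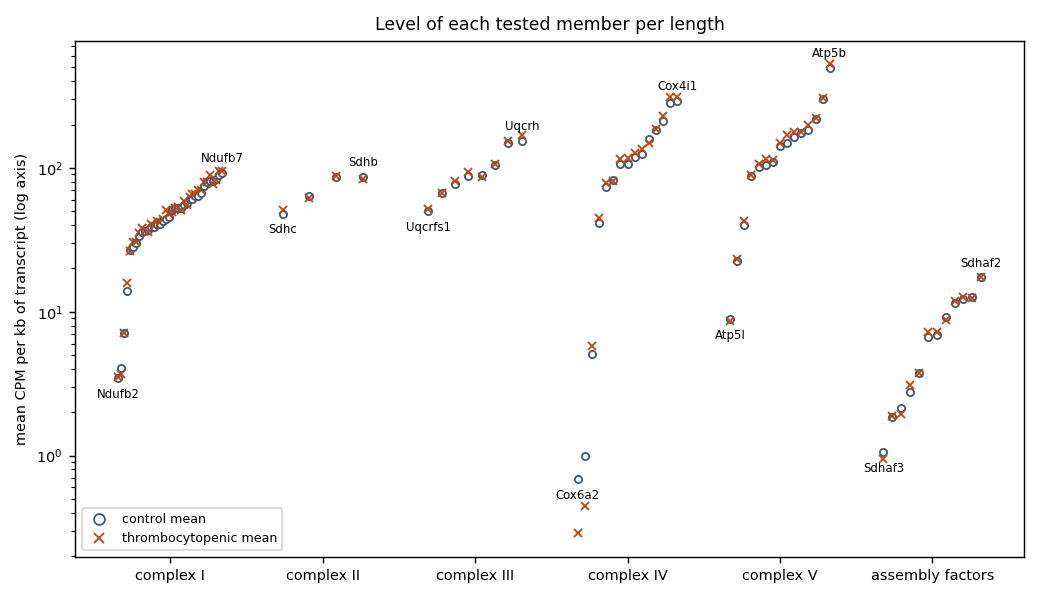
Level of the 90 tested members with a known length, as CPM per kilobase of transcript in the control and thrombocytopenic groups (log axis), by complex. Atp5b lies highest in both groups, and the assembly factors lie between 1.06 and 17.3 in the control group.

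Respiratory chain transcripts are short, with a median of 746.3 bases against 2699 for all genes, and short genes in general were somewhat higher in the thrombocytopenic group. All 68 genes under 500 bases had a median log2 fold change of 0.11 and the 13 members among them 0.092. The 814 genes of 500 to 1000 bases had a median of 0.025 and the 43 members among them 0.042. Among the 2727 genes of 1000 to 2000 bases the median was 0.006, and among the 22 members 0.057. In the 4684 genes of 2000 to 4000 bases it was -0.009, and 0.023 in the 11 members. The 1 member over 4000 bases was at -0.14, where all 2783 genes had a median of -0.011. So the members under 500 bases were close to all genes of that length, those of the next 3 classes were above theirs, and the longest was below. The members are counted in each class of all genes. They are 13 of the 68 in the shortest class, so the medians compared there are not independent. The part of length in these differences was not tested.

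Genes around the nuclear subunits were read from lists made with these results in view. Of the 13 mitochondrially encoded subunits 7 could be tested. The cytochrome b gene mt-Cytb, of complex III, rose (1118 ± 8.09 CPM against 975.7 ± 57.1 CPM, log2 0.20, SE 0.030, adjusted p = 2.48e-06), and the other 6 did not pass. The most abundant of them, mt-Co1, was at 2488 ± 70.9 CPM against 2252 ± 198 CPM (log2 0.14, adjusted p = 0.203). The 6 that could not be tested (mt-Co2, mt-Co3, mt-Atp6, mt-Atp8, mt-Nd3 and mt-Nd4l) were at or near 0 in every library, although they encode parts of the same enzymes, so the tables cannot give the balance of the 2 genomes. The electron carrier genes Cyc1 and Cycs did not pass.

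Genes that help build the complexes, outside the naming rule, were called at or below the 45.1% of all genes, so their counts are no result about them. Of 21 complex IV assembly genes 3 fell and 1 rose (19% called): Cox15, of heme a synthesis, went from 73.4 ± 2.46 to 62.0 ± 1.25 CPM (log2 -0.24, adjusted p = 2.42e-07). Coa5 (log2 -0.17, adjusted p = 1.19e-06) and Coa7 (log2 -0.25, adjusted p = 0.00884) fell with it, and Cox14 rose (log2 0.17, adjusted p = 0.0299). Of 9 tested complex I assembly genes outside the rule 44.4% were called: Acad9 (log2 -0.21, adjusted p = 0.00154), Foxred1 (log2 -0.19, adjusted p = 0.00156) and Dmac2 (log2 -0.23, adjusted p = 0.0334) fell. Dmac1, of the membrane arm, rose from 27.7 ± 0.316 to 36.6 ± 0.8 CPM (log2 0.40, adjusted p = 4.68e-10), a larger difference than in any subunit that rose. The calls of Cox14 (log2 0.11, adjusted p = 0.205) and Dmac2 (log2 -0.20, adjusted p = 0.0996) were lost without thrombocytopenic library 2. They were also lost without some other libraries and with DESeq2, with folds of the same direction. Of 18 alternatives the call of Cox14 held in 12 and that of Dmac2 in 11. None of the 6 complex III and 4 complex V assembly genes passed.

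Of 11 tested genes known to act in the expression of nuclear or mitochondrial respiratory chain genes, 4 rose and 1 fell. That is 45.5% called, near the 45.1% of all genes. Yy1, whose letters were among those searched in the promoters, went from 76.8 ± 2.05 to 92.7 ± 1.16 CPM (log2 0.27, SE 0.034, adjusted p = 1.82e-09). Pprc1, a coactivator of the PGC-1 family, rose (log2 0.24, adjusted p = 1.04e-06), as did Esrra, the estrogen-related receptor alpha (log2 0.20, adjusted p = 0.000121). Nrf1 was named after its values were seen and rose from 37.4 ± 0.696 to 40.4 ± 0.853 CPM (log2 0.11, adjusted p = 0.0359). Ppargc1b, another coactivator of that family, fell by 0.44 on the log2 scale at a low level of 3.21 ± 0.807 CPM in controls (adjusted p = 0.0287), with overlapping libraries. Ppargc1a had no count in any library. Without control library 2 the calls of Ppargc1b (log2 -0.26, adjusted p = 0.31) and Nrf1 (log2 0.092, adjusted p = 0.153) were lost, the fold of Nrf1 staying close to its full value. Both calls were also lost with DESeq2 and without several other libraries. The call of Nrf1 held in only 8 of 18 alternatives and that of Ppargc1b in 11 of 17. Whether these factors bear on the subunit genes was not tested.

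The 10 members that could not be tested had few or no counts. Besides the silent complex IV paralogues these were the second copies Ndufs6b, Cox6c2, Ndufb4c and Ndufa11b, with at most 10 counts in a group, and Ndufb11b, with none. The 15 symbols ending in -ps that the rule left out held 2 tested genes, Atp5pb-ps and Cox5b-ps, and neither was called.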

How the data were processed

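The authors deposited raw counts per gene, 1 file for each of 6 libraries, with the same 56832 symbols. Per the labels' protocols, libraries came from a TruSeq Stranded mRNA kit with dUTP strand marking and were read on a NovaSeq. The submitters' processing notes name fastp 0.23.1, STAR 2.7.9a, Subread 2.0.1, featureCounts and Salmon 1.5.2. What each tool did, which build and annotation were used and whether counting used strand is not given in the sources used here, so overlapping genes and near copies are uncertain.

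Groups follow the labels. Counts were analysed as deposited in R 4.3.3 with edgeR 4.0.16: filterByExpr (minimum count 10, total 15; 12488 genes kept), TMM factors (0.9943 to 1.002), a robust quasi-likelihood fit on 2 groups, and Benjamini-Hochberg adjustment over all genes tested, two-sided, threshold 0.05. SE is |log2 fold change| / sqrt(F), and intervals are at 95%. CPM are scaled by TMM factors and given as single libraries or mean ± SD. Totals of 24842319 to 37552029 counts leave genes under 1 CPM with few counts, and counting limits cover counting error only.

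The members and lists were chosen with earlier results of these data known. Named members are all those called, the highest and the most different of each complex, and a fixed set of subunits. Other pathway genes named are the called ones with the smallest p in each list, and exceptions are marked. Some genes that meet this rule or belong to a marker list are not reported here and are not drawn by name. Promoters are from RefSeq (GRCm38.p6). Lengths (90 of 93 tested members, 11076 of 12488 genes) are median lengths of coding transcripts in the reference annotation. No library pair within a group agreed within sampling noise, so each was counted as 1 replicate. That cannot show whether they come from separate animals, since separate preparations of the same material can also differ beyond counting noise. The common coefficient of variation between libraries, as edgeR estimated it beyond counting noise, was 2.68%. Calls of small folds rest on that small spread. Alternatives were other scalings, DESeq2 1.42.0, limma-voom (limma 3.58.1), other filters and thresholds, a replicate block and leaving out each library. The steps were tested on simulated data.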

Additional observations from a re-analysis of the deposited data

How the results depend on the processing

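The counts of members that rose and fell were 21 and 2. Upper quartile scaling, which shifts the median of all genes to -0.025, moved the members' median log2 fold change from 0.05 to 0.026 and the log2 ratio of their summed CPM from 0.056 to 0.032, with 15 rising and 3 falling. It gave 2362 rises and 3164 falls in the whole table, against 2792 and 2834. The number that fell was 0 with DESeq2 (18 rose), 0 at an adjusted p under 0.01 (14 rose), 1 with no filter on low counts and 1 with a mean of at least 5 CPM. In the whole table DESeq2 gave 2373 rises and 2347 falls of 12488 genes. With no filter these were 2636 and 2781 of 22611. Leaving out each library in turn gave 11 to 27 rises, lowest without thrombocytopenic library 1 and highest without thrombocytopenic library 2, and 0 to 3 falls. For the 0.01 threshold, the 5 CPM filter and the omitted libraries the shares over all genes are not given. Those counts are therefore not read as results about the members. Of the 23 calls, 7 held under every alternative that gave a value: Ndufb3, Cox6b1, Cox7b, Ndufa4, Atp5b, Atp5e and Atp5j2. Over 753 alternative values of named members, 680 kept their side of the threshold, 59 lost the call, 14 gained it and 0 changed direction while called.

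No pairing by replicate number was seen: same-numbered libraries of the 2 groups had deviations from their group means that correlated at -0.038, -0.089 and -0.013. For libraries of different number the range was -0.059 to 0.088. A shared batch that moves few genes could be missed by this check. With the replicate number as a block, 20 members rose and 2 fell, where 2679 of all genes rose and 2723 fell. Ndufb1 and Cox5a lost their calls while Cox6b2 gained one. Depth limits the genes at low levels, where Cox6a2 and Cox6b2 rest on at most 41 counts in a group.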
